A study of Mus musculus with 6 samples.

Results

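Axon guidance ligands and receptors were read on Affymetrix MOE430 arrays of sorted mouse bladder cells. Members were chosen by gene symbol alone: semaphorins of classes 3 to 7, plexins, Nrp1 and Nrp2, netrins and netrin-G proteins, Dcc, Neo1 and Unc5 receptors, Slit and Robo genes, and ephrins with their Eph receptors. The rule took 163 of 45037 probe sets, which stand for 72 of 18193 genes. One of the 72, Plxna4os1, is an antisense RNA that the plexin pattern caught, and it is no receptor. All mice were male, FVB/N and at postnatal day 2, and carried a pair of transgenes: EGFP driven by the promoter of smooth muscle gamma actin (SMGA, endogenous gene Actg2) and EYFP driven by the promoter of smooth muscle alpha actin (SMAA, endogenous gene Acta2). The single-positive group (3 arrays) held EGFP and no EYFP, and the double-positive group (3 arrays) held both reporters. By its label each population came from the detrusor, the muscle coat of the bladder, and each group is defined by what a transgenic promoter drives and not by an endogenous protein.

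Axon guidance cues are secreted or membrane-bound proteins that attract or repel growing axons and migrating cells. Semaphorins signal through plexins, often with a neuropilin as the binding subunit, netrins through Dcc, neogenin (Neo1) and Unc5 proteins, Slit proteins through Robo receptors, and ephrins through Eph receptor tyrosine kinases, where the ligand-bearing cell can signal as well. The same families act outside the nervous system in vessel patterning, cell sorting at tissue boundaries and mesenchymal migration, and autonomic nerves have to grow into the bladder wall to reach its muscle.

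Each array gave a linear signal per probe set in arbitrary units, and median signal ran from 147.1 to 199.8 over the 6 arrays. Whether the 3 arrays of 1 group stand for 3 animals is not said in the labels, and the p-values therefore cover a spread that may be technical only. Smooth muscle markers were lower in the double-positive arrays, where 10 of 11 fell. Actg2, the endogenous gene of the EGFP reporter that both groups carry, fell from a mean signal of 60131 to 10595 (log2 fold change -2.54), and Acta2, at 62346 and 59801, was the 1 marker that did not pass. Of markers of other cells, 5 of 10 tested Schwann cell and neuron genes, 5 of 11 endothelial, 12 of 13 leukocyte and 9 of 14 urothelial genes fell. Of pericyte markers 2 of 7 fell, and no gene of these lists rose. None of 7 fibroblast and 2 tested mesothelial genes passed in either direction. The ratio of 3' to 5' signal of the Actb control, a measure of transcript coverage, was 3.23 to 5.97 in single-positive and 2.78 to 8.02 in double-positive arrays. That of the Gapdh control was 11.8 to 20.6 in single-positive and 17.2 to 23.9 in double-positive arrays. The groups overlapped in both, and signal leaned to the 3' end on every array.

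Of the 72 member genes, 59 were bright enough to be tested, and 7 passed a limma adjusted p of 0.05 over all 13464 genes tested. Ntng1, Dcc, Sema3e and Efnb1 rose in the double-positive arrays, and Plxna4, Sema4f and Plxnb3 fell. That is 11.9% of the tested members, against a background where 6.37% of all tested genes passed (1.98% higher, 4.38% lower). The median log2 fold change, double-positive over single-positive on the scale log2(signal + 25.042), was 0.13 for the members and 0.02 for all genes, both close to 0. Groups did not overlap for 15 of the 59 members, 25.4% against a background of 22.4%: 7 lay higher (background 10.5%) and 8 lower (background 11.9%) in the double-positive arrays, so this share was near that of all genes. By role, 3 of 32 tested ligands rose and 1 fell, and 1 of 27 tested receptors rose and 2 fell. In bulk RNA of sorted cells, fewer cells of a type and less RNA per cell cannot be told apart, and this holds for each difference given here. With single-positive array 1, 2 or 3 left out, the members past the threshold numbered 4, 2 and 5, beside 4.31%, 3.69% and 3.52% of all genes. With double-positive array 1, 2 or 3 left out they numbered 2, 3 and 7, beside 4.66%, 5.59% and 8% of all genes.

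**Figure D1:**
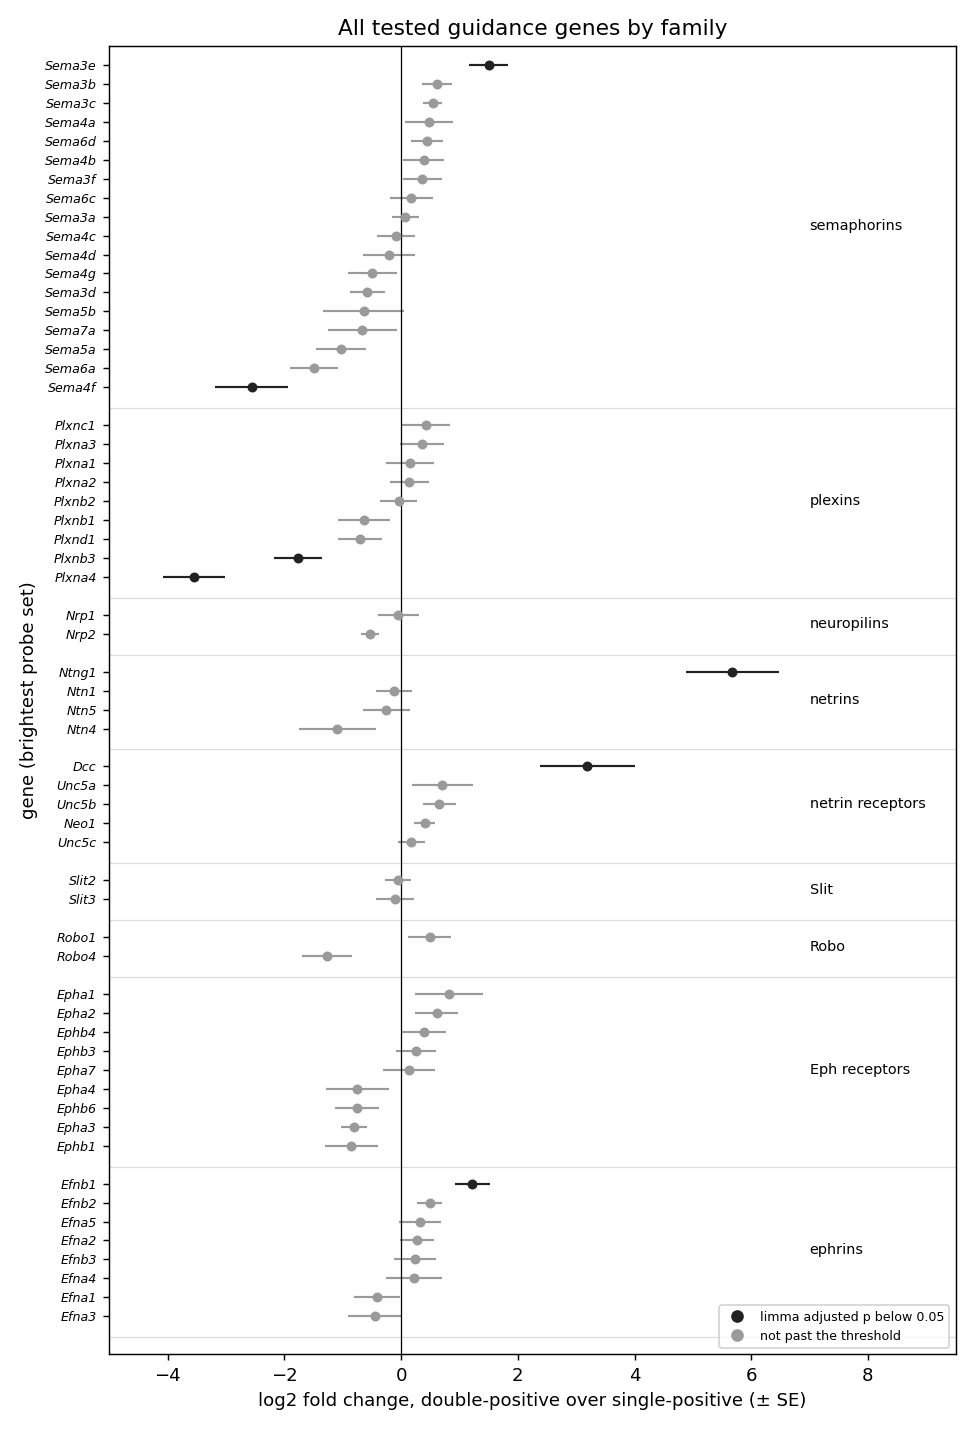
Log2 fold change of double-positive over single-positive arrays (x axis, bars ± SE of the limma fit) for each of the 59 tested guidance genes (y axis), grouped by family. The 7 genes past the threshold are black: Ntng1 at 5.68 and Plxna4 at -3.56 lie farthest from 0, and the other 52 genes are grey on both sides of it.

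**Figure D2:**
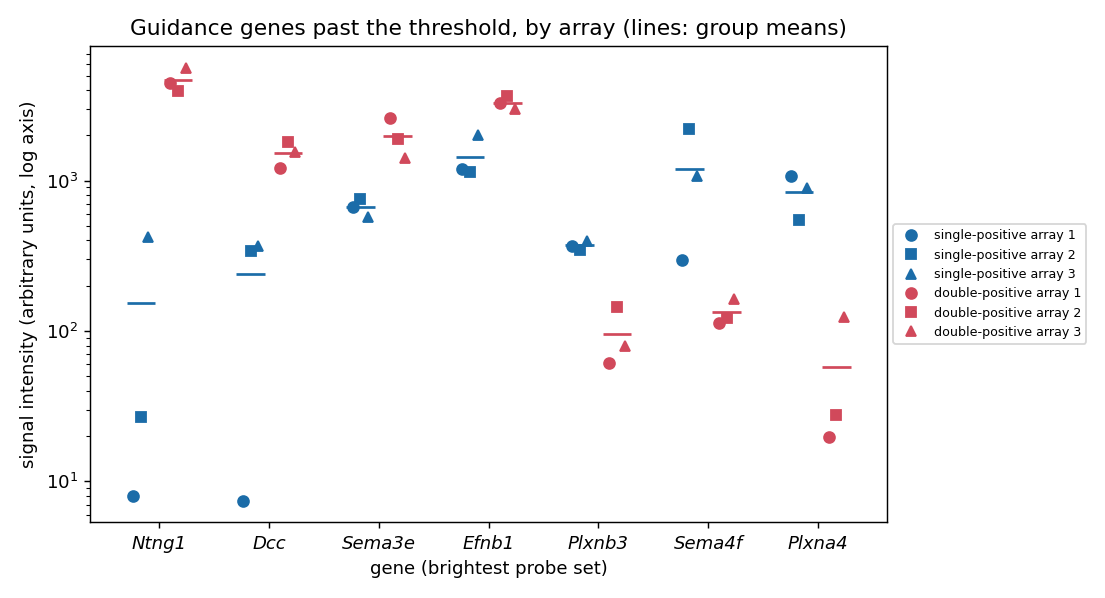
Signal intensity on a log axis (y) of the 7 guidance genes past the threshold (x), with a point for each array and a line for each group mean. For every one of the 7 genes the 3 double-positive points lie all above or all below the 3 single-positive points, and Ntng1, Dcc and Sema4f have the widest single-positive spread.

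Promoter sequences are shown for the rising members that the RefSeq promoter table of build GRCm38.p6 holds, since these genes moved the same way. Each window runs from 250 bases before to 50 bases after the annotated start, 5′ to 3′ on the gene's own strand, and entries were found for 61 of the 72 members. The windows are chr3:110143423-110143722 on the minus strand for Ntng1, chr5:14025026-14025325 on the plus strand for Sema3e and chrX:99135811-99136110 on the plus strand for Efnb1. Capitals mark GGCGCC, the GC-rich core of BMP response elements.
Ntng1: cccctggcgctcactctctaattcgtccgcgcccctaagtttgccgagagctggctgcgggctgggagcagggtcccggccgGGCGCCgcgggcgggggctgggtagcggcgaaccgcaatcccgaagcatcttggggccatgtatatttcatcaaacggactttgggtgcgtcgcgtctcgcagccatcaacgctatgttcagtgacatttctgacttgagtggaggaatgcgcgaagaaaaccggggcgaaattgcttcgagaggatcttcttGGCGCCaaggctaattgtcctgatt
Sema3e: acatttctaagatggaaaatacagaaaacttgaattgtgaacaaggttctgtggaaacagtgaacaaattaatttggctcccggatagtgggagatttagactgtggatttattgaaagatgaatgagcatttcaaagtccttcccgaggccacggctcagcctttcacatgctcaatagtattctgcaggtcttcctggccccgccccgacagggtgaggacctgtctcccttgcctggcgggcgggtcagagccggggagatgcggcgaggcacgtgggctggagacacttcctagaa
Efnb1: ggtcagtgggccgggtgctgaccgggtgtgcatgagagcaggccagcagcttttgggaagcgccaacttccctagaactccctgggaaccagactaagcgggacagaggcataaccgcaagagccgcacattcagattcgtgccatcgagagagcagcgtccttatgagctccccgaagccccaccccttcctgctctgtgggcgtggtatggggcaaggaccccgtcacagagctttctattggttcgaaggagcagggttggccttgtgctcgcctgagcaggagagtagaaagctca

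Both strands were searched for letters of 5 motifs: TGGGTGGTC (GLI factors of the Hedgehog pathway), TGTTTAC (forkhead factors), CTTTGAT (TCF/LEF factors of the Wnt pathway), GGCGCC and the CArG box bound by SRF. The Ntng1 window held GGCGCC at 168 bases before and at 25 bases after the start, and 11.9% of all 32851 promoter windows of this length held it at least once. Of 77 member windows, 18 held it. No match to any of the 5 was found in the windows of Sema3e and Efnb1, nor in those of Sema4f and Plxnb3, which fell. Over all promoters the other shares were 0.253% for the GLI letters, 3.65% for forkhead, 3.73% for TCF/LEF and 1.63% for the CArG box. Letters in a window are not binding sites, and their absence from it says nothing about a factor.

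Ntng1 had the largest change of the 59 tested members. It encodes netrin-G1, a lipid-anchored membrane protein related to netrins that binds the synaptic adhesion protein Lrrc4c and not Dcc. Its signal on probe set 1449286_at was 8.01, 26.8 and 422 in single-positive arrays 1, 2 and 3, and 4482, 3973 and 5645 in the double-positive arrays. Every double-positive value lay above every single-positive value, while the single-positive arrays were spread widely, with array 3 far above the others. The means were 152 ± 234 and 4700 ± 857 (SD, n = 3 each), 30.9-fold apart, and the log2 fold change was 5.68 (SE 0.80, adjusted p = 0.00224 by limma). The mean log2 value in single-positive arrays was 6.52, below the level of 6.82 that a gene needed to be tested. Ntng1 was therefore tested only through the group in which it is bright, and the size of the log2 fold change rests on the offset of 25.042. Ntng1 passed with any 1 array left out. The log2 fold changes then ran from 4.94 (without single-positive array 1) to 6.82 (without single-positive array 3). Ntng1 also passed with its probe sets averaged, where the log2 fold change was 2.26. These fits reuse the same arrays and filter level, so they add no separate support. Lrrc4c was too dim to be tested, with signals of 51.8, 25.7 and 99.6 in single-positive and 2.93, 230 and 24.1 in double-positive arrays.

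The secreted netrins gave no called change. Ntn1 (netrin-1, the ligand of Dcc, Neo1 and Unc5 proteins) had signals of 1488, 2687 and 1818 in single-positive and 2067, 1771 and 1510 in double-positive arrays, which overlapped. Its log2 fold change was -0.13 (95% confidence interval -0.82 to 0.56 in the limma fit). Ntn4 and Ntn5 were dim, at means of 249.7 ± 163 and 158 ± 36.1 (SD, n = 3) in single-positive arrays and 121 ± 109 and 129 ± 32.5 in double-positive arrays, and neither passed. Ntn3 and Ntng2 were below the level of the filter.

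Dcc, which mediates attraction to netrin-1, rose. On probe set 1440487_at the signals were 7.44, 339 and 368 in single-positive and 1204, 1794 and 1559 in double-positive arrays. The groups did not overlap, and single-positive array 1 lay far below the other arrays of its group. Mean signal was 238 ± 200 against 1519 ± 297 (SD, n = 3 each), 6.38-fold higher, with a log2 fold change of 3.19 (SE 0.82, adjusted p = 0.0459 by limma). The call was close to the threshold and passed without single-positive array 1 (where the log2 fold change was 2.01) or 3 (3.81) but not without single-positive array 2 or without any 1 of the double-positive arrays, where the adjusted p was 0.0552 to 0.143.

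The remaining netrin receptors had fold changes above 0 and did not pass. Neo1, which also binds repulsive guidance molecules, had signals of 18328, 26992 and 21872 in single-positive and 27975, 26852 and 33443 in double-positive arrays, a log2 fold change of 0.40 (SE 0.18, adjusted p = 0.267 by limma). Unc5b, a repulsive netrin receptor also found on vessels, had signals of 4491, 2496 and 2718 against 4339, 6000 and 4576, with a log2 fold change of 0.65 (SE 0.28, adjusted p = 0.267 by limma). In both genes 1 value kept the groups from separating. Unc5c had means of 9054 ± 2068 and 10147 ± 1792 (SD, n = 3) and a log2 fold change of 0.17 (95% confidence interval -0.34 to 0.68). Unc5a had a log2 fold change of 0.71 at a low level, and Unc5d was not tested. Averaged over its probe sets Neo1 had a log2 fold change of -0.135 and again did not pass.

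Sema3e, a secreted semaphorin that binds Plxnd1 without a neuropilin, was the 1 of 18 tested semaphorins that rose. Its signals on probe set 1442226_at were 668, 755 and 568 in single-positive and 2625, 1876 and 1422 in double-positive arrays. The lowest double-positive value was well above the highest single-positive value. Means were 664 ± 93.2 and 1975 ± 607 (SD, n = 3 each), 2.97-fold higher, with a log2 fold change of 1.502 (SE 0.33, adjusted p = 0.0230 by limma). The fold change stayed between 1.28 and 1.71 with any 1 array left out, but the call passed without double-positive array 3 and was lost without each of the others, with an adjusted p of 0.0567 to 0.104. Its receptor Plxnd1 had signals of 2069, 1984 and 2415 against 875, 2318 and 1098, and the log2 fold change of -0.71 (SE 0.37) did not pass.

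The other class 3 semaphorins, also secreted, did not pass. Sema3c, which binds neuropilins and plexins and is best known from heart outflow tract development, had signals of 29939, 31772 and 25331 in single-positive and 51275, 38806 and 37404 in double-positive arrays. These groups did not overlap, but the log2 fold change of 0.54 (SE 0.16) had a limma adjusted p of 0.0881. Sema3b likewise had groups that did not overlap, with a log2 fold change of 0.61 (SE 0.26, adjusted p = 0.249 by limma). Sema3d, with 15010, 10795 and 13441 against 9149, 5411 and 13057, had a log2 fold change of -0.58 (SE 0.30, adjusted p = 0.364 by limma). Sema3a, the repellent of sensory and sympathetic axons, had means of 6536 ± 1320.4 and 6830 ± 972 (SD, n = 3) and a log2 fold change of 0.07 (95% confidence interval -0.44 to 0.59) on its brightest probe set. Its other tested probe set, 1449865_at, had 1843, 1209 and 1622 in single-positive and 2374, 2539 and 2660 in double-positive arrays. These did not overlap, and the log2 fold change of 0.71 (SE 0.27) had a limma adjusted p of 0.273 over all probe sets. Sema3f had a log2 fold change of 0.37 on its brightest probe set. Its other probe sets had 1.02 (1420508_at, no overlap) and 0.85 (1425840_a_at), and neither passed over all probe sets.

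Sema4f, a membrane semaphorin of class 4, fell. On probe set 1439768_x_at the signals were 296, 2219 and 1073 in single-positive and 113, 122 and 164 in double-positive arrays. All double-positive values were lower, and the single-positive arrays differed widely among themselves, with array 1 lowest. Means were 1196 ± 968 and 133 ± 27.4 (SD, n = 3 each), 8.99-fold lower, with a log2 fold change of -2.56 (SE 0.62, adjusted p = 0.0364 by limma). The suffix of this probe set marks probes that can match other transcripts, and the unshared one, 1419328_at, had -1.88 and an adjusted p of 0.115 when it stood for the gene. Sema4f passed without single-positive array 1 (-3.33) and was lost without any 1 of the other 5 arrays, at an adjusted p of 0.0528 to 0.139.

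The remaining membrane semaphorins did not pass, and their fold changes lay on both sides of 0. Sema6a, a ligand of class A plexins, had signals of 1251, 1334 and 556 in single-positive and 268, 390 and 346 in double-positive arrays. The groups did not overlap, and the log2 fold change was -1.49 (SE 0.41, adjusted p = 0.0654 by limma). Without single-positive array 3 it was -1.89 and passed (limma adjusted p = 0.0383). On the other tested probe sets of Sema6a, 1425903_at and 1421414_a_at, the groups overlapped, with log2 fold changes of -0.22 and -0.51. Sema5a had signals of 6374, 6419 and 4670 against 1390, 2796 and 5669, and double-positive array 3 lay among the single-positive values. Its log2 fold change was -1.03 (SE 0.43, adjusted p = 0.245 by limma). Among the others, Sema4a (0.48), Sema6d (0.44) and Sema4b (0.39) were on the positive side and Sema7a (-0.67), Sema5b (-0.64) and Sema4g (-0.49) on the negative side.

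Plexins, the signalling receptors of semaphorins, gave 2 falls and no rise among 9 tested, where 4.38% of all genes fell and 1.98% rose. Plxna4, which pairs with neuropilins for class 3 semaphorins and is known from sympathetic and sensory neurons, had signals of 1069, 545 and 891 in single-positive and 19.7, 27.5 and 125 in double-positive arrays on probe set 1457840_at. Every double-positive value was less than every single-positive value, with double-positive array 3 the highest of its group. Means were 835 ± 266 and 57.3 ± 58.4 (SD, n = 3 each), 14.6-fold lower, and the log2 fold change was -3.56 (SE 0.53, adjusted p = 0.00302 by limma). The mean log2 value in double-positive arrays was 6.14, below the filter level of 6.82. Plxna4 was therefore tested only through the single-positive arrays, and the size of its log2 fold change rests on the offset too. Plxna4 passed with any 1 array left out (-4.10 to -3.23), but these fits reuse the same arrays and filter level and add no separate support. Its other tested probe set, 1441371_at, had 255, 141 and 302 against 258, 210 and 90.9, which overlapped, with a log2 fold change of -0.33. With the smaller offset tried, that probe set stood for the gene, and the call was lost (-0.365, adjusted p = 0.813 by limma).

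Plxnb3, a receptor of Sema5a, fell as well. Its signals on probe set 1440813_s_at were 368, 346 and 398 in single-positive and 61.7, 145 and 80.0 in double-positive arrays, with tight single-positive values and no overlap. Means were 371 ± 25.7 and 95.4 ± 43.5 (SD, n = 3 each), 3.89-fold lower, with a log2 fold change of -1.77 (SE 0.41, adjusted p = 0.0289 by limma). The call passed without double-positive array 2 and was lost without any 1 of the other 5 arrays, at an adjusted p of 0.0589 to 0.117. The unshared probe set of Plxnb3 had a log2 fold change of -0.58 and did not pass.

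Of 10 tested Schwann cell and neuron markers, 5 fell as well. Smooth muscle (10 of 11), leukocyte (12 of 13) and urothelial (9 of 14) markers fell in larger shares. The summed signal of the 12 Schwann cell and neuron markers on the array was 13408 to 16722 in single-positive and 1539 to 2860 in double-positive arrays. Erbb3 and Mbp, at single-positive means of 5400 and 4279, were its largest parts. Snap25, a synaptic protein, had signals of 610, 710 and 690 against 14.5, 1.76 and 27.7. Sox10, the defining transcription factor of Schwann cells, had 221, 192 and 345 against 214, 710 and 164, which overlapped. The part of any of these cell types in the falls of Plxna4, Plxnb3 and Sema4f was not tested.

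The other plexins did not pass. The log2 fold change of Plxnb2 was -0.04 (95% confidence interval -0.76 to 0.68) and that of Plxna1 was 0.15 (95% confidence interval -0.77 to 1.06). Plxnb1, the receptor of Sema4d, had -0.64, Plxnc1, the receptor of Sema7a, had 0.42, and Plxna3 and Plxna2 had 0.36 and 0.14. Probe set 1451753_at of Plxna2 had 1.09 without overlap (limma adjusted p = 0.271 over all probe sets), and 1453286_at had 0.04.

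The neuropilins, binding subunits for class 3 semaphorins and VEGF, were measured on 4 probe sets each. Nrp2, preferred by Sema3f and VEGF-C, had signals of 19069, 21689 and 18243 in single-positive and 14272, 13261 and 13236 in double-positive arrays on its brightest probe set. The groups did not overlap, but the log2 fold change of -0.53 (SE 0.16) had a limma adjusted p of 0.0845. Its next brightest probe set, 1456778_at, had 8975, 6576 and 11200 against 2809, 3585 and 3276. That log2 fold change, -1.43 (SE 0.25), passed over all 27022 probe sets tested (limma adjusted p = 0.0154), and the other 2 probe sets of Nrp2 had -0.70 and -1.20 and did not. Nrp1, preferred by Sema3a, had 12372, 16438 and 14747 against 15967, 23254 and 7287 on its brightest probe set, with double-positive arrays 2 and 3 at opposite ends, and a log2 fold change of -0.05 (95% confidence interval -0.83 to 0.74). Its other probe sets had log2 fold changes of -0.47 (1448943_at, no overlap), -0.53 (1448944_at) and 0.86 (1457198_at), and none passed over all probe sets.

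Neither tested Slit ligand passed. Slit2 had signals of 18024, 20705 and 18384 in single-positive and 15159, 15164 and 26596 in double-positive arrays, and array 3 alone put the double-positive mean of 18973 beside the single-positive mean of 19037. The log2 fold change of Slit2 was -0.06 (95% confidence interval -0.56 to 0.45) and that of Slit3 was -0.10 (95% confidence interval -0.83 to 0.62). Robo1, a Slit receptor, had 1530, 1994 and 1901 against 2171, 1676 and 4489, again with double-positive array 3 highest, and a log2 fold change of 0.49 (SE 0.37, adjusted p = 0.582 by limma).

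Robo4, a receptor of endothelial cells, had signals of 669, 375 and 649 in single-positive and 135, 317 and 222 in double-positive arrays. The groups did not overlap, and the log2 fold change of -1.26 (SE 0.43) had a limma adjusted p of 0.136. Of 11 tested endothelial markers 5 fell, beside the falls of smooth muscle, leukocyte and urothelial markers given above. The summed signal of the endothelial markers was 37062 to 46405 in single-positive and 6864 to 11311 in double-positive arrays. Cdh5, the vascular cadherin, had 6000, 4245 and 4511 against 877, 1312 and 616. The part of endothelial cells in the Robo4 values was not tested. Robo2, Robo3 and Slit1 were not tested.

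Efnb1, a transmembrane ephrin that binds EphB receptors and can signal into its own cell, rose, the 1 call among 8 ephrins. Its signals on probe set 1418286_a_at were 1203, 1133 and 1999 in single-positive and 3267, 3630 and 2994 in double-positive arrays. The double-positive arrays were close together and all above the highest single-positive value, that of array 3. Means were 1445 ± 481 and 3297 ± 319 (SD, n = 3 each), 2.28-fold higher, with a log2 fold change of 1.22 (SE 0.30, adjusted p = 0.0371 by limma). Leaving out array 3 of either group kept the call, and leaving out array 1 or 2 of either group ended it, at an adjusted p of 0.105 to 0.143. The other tested probe sets of Efnb1 had log2 fold changes of 0.78 and 0.31.

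The remaining ephrins did not pass. Efnb2, the arterial ligand of Ephb4, had signals of 6367, 8084 and 8250 against 13178, 9796 and 9172 on its brightest probe set, without overlap. The log2 fold change was 0.49 (SE 0.21, adjusted p = 0.265 by limma). Of its other tested probe sets, 1419638_at had 0.18 with overlap. The dim 1449549_at had -0.41, the opposite direction, also without overlap. Among the lipid-anchored A class ephrins, Efna5 had a log2 fold change of 0.33 (SE 0.36), Efna1 -0.42 (SE 0.40) and Efna3 -0.45 (SE 0.46).

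None of 9 tested Eph receptors passed limma. An unadjusted limma p below 0.05 was found in 17.6% of all tested genes and in 1 of these 9. That was Epha3, a receptor of Efna5 that is expressed in mesenchyme, with signals of 18211, 14980 and 15990 in single-positive and 7420, 8742 and 12484 in double-positive arrays. The groups did not overlap, with double-positive array 3 nearest to the single-positive values, and the log2 fold change was -0.81 (SE 0.22, adjusted p = 0.0575 by limma). Without double-positive array 3 it was -1.02 and passed (adjusted p = 0.0101). Among the EphB receptors, Ephb1 had 3159, 2869 and 1826 against 1660, 658 and 2482 (log2 fold change -0.85, SE 0.46). The log2 fold change of Ephb3 was 0.25 (SE 0.34) and that of Ephb4 was 0.39 (SE 0.37). Ephb2 had no probe set among the members. Ephb6, which lacks kinase activity, had 444, 357 and 287 against 168, 234 and 205, without overlap (log2 fold change -0.76, SE 0.38, adjusted p = 0.345 by limma). Epha4 had a log2 fold change of -0.75, Epha2 0.61, Epha1 0.82 and Epha7 0.13, all within 2 standard errors of 0.

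**Figure D3:**
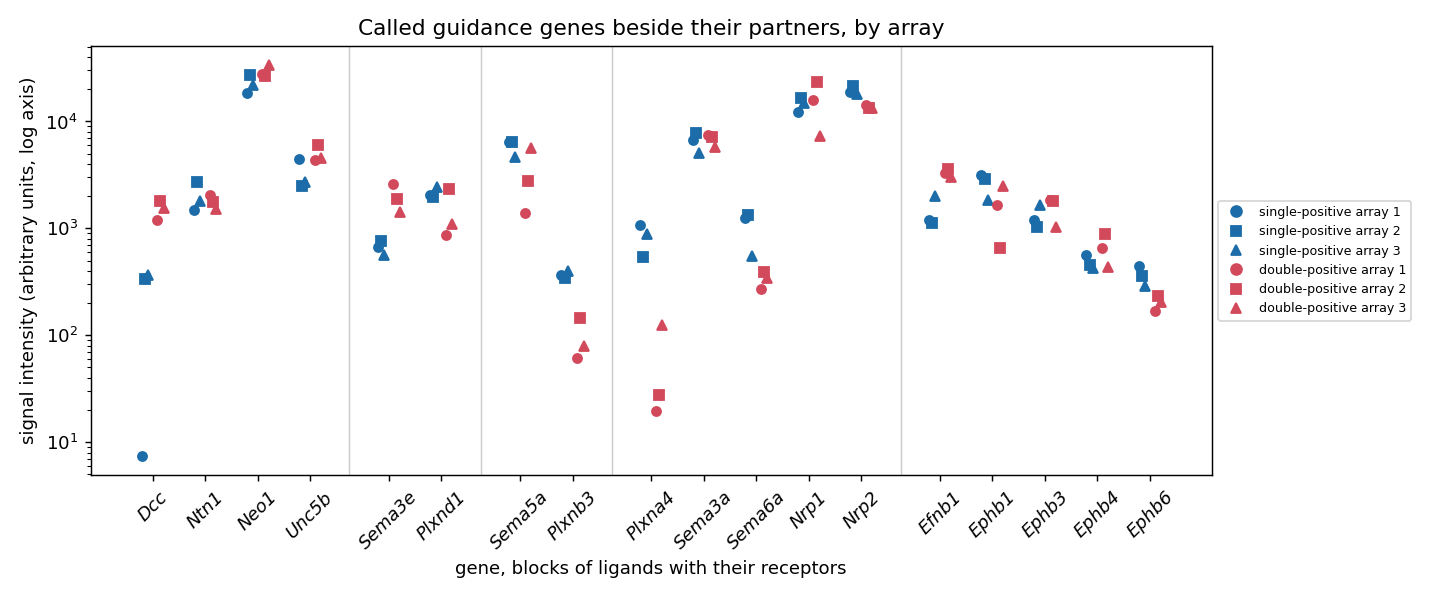
Signal intensity on a log axis (y) by array for called guidance genes and known partners of each (x), in blocks of netrin, semaphorin and ephrin genes. The called Dcc, Sema3e, Plxnb3, Plxna4 and Efnb1 separate the groups, as do the partners Sema6a, Nrp2 and Ephb6, while the groups of the other partners overlap.

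Known binding partners among the tested members were set beside 5 of the called members, and none passed on its brightest probe set. Ephb2 was not among these partners, as it had no member probe set. The groups overlapped for Ntn1 beside Dcc, Plxnd1 beside Sema3e, Sema5a beside Plxnb3, Sema3a and Nrp1 beside Plxna4, and Ephb1, Ephb3 and Ephb4 beside Efnb1. On the brightest probe sets they did not overlap for Sema6a (log2 fold change -1.49) and Nrp2 (-0.53) beside Plxna4, nor for Ephb6 (-0.76) beside Efnb1. Sema6a and Nrp2 were lower like Plxna4, but the groups overlapped on the other tested probe sets of Sema6a. Probe set 1456778_at of Nrp2 passed among all probe sets, as given above. That a partner missed the threshold does not show that its level was equal in the groups, as the confidence interval of Ntn1 shows.

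Each of the 163 probe sets was also tested on its own. Of these, 116 were bright enough, and 4 passed limma over all 27022 probe sets tested: 1 each of Ntng1 and Sema3e rose, and 1 each of Plxna4 and Nrp2 fell. That is 3.45% of the members' probe sets, against 3.42% of all probe sets (1.01% higher, 2.42% lower), a share near the background. Of 35 genes with more than 1 tested probe set, 25 had all of them on 1 side of 0 and 10 had them on both sides (Efna2, Efnb2, Epha3, Epha4, Epha7, Nrp1, Plxnc1, Sema5b, Sema6c and Sema6d). Probe set 1430779_at of Ntng1 had 106, 68.5 and 47.8 against 246, 796 and 189, with a log2 fold change of 1.91 that did not pass. Probe set 1441572_at of Dcc had 3.83, 47.6 and 9.46 against 454, 774 and 82.6, with a log2 fold change of 3.05 that did not pass. In both, the single-positive mean log2 values (6.59 and 5.38) were under the filter level of 6.82, so these probe sets were tested only through the group in which they are bright, had to differ and add no support. The third Dcc probe set had a log2 fold change of 0.81, and the other tested probe sets of Sema3e had 2.20, 1.72 and 1.34, the last also with a single-positive mean (6.50) under that level. None of these passed.

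**Figure D4:**
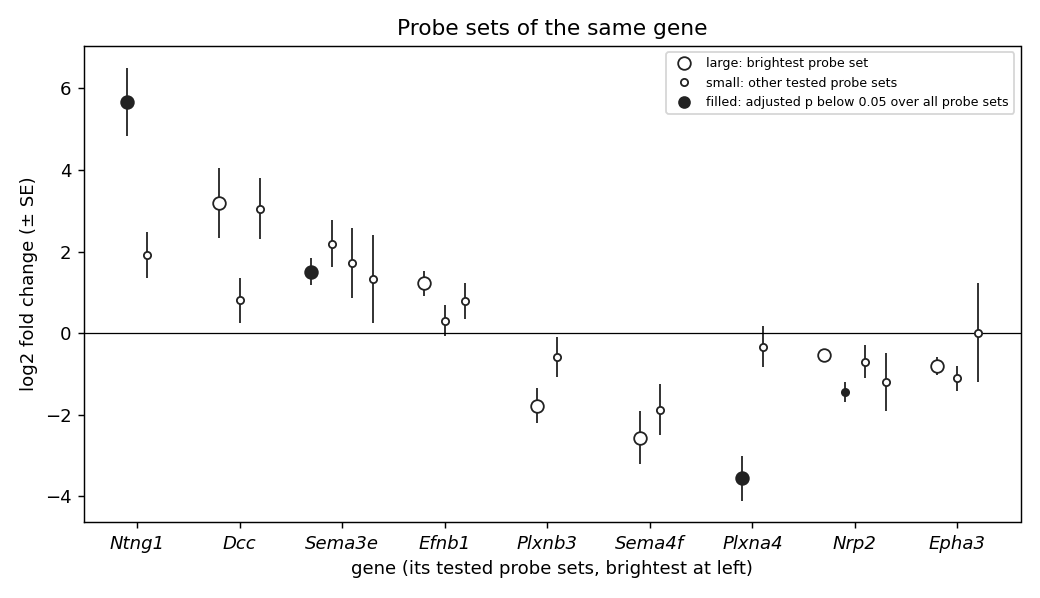
Log2 fold change (y, bars ± SE) of every tested probe set of 9 guidance genes (x), the brightest at the left of each gene. Filled points passed over all probe sets (Ntng1, Sema3e, Plxna4 and 1 of the 4 of Nrp2), and probe sets of 1 gene can lie far apart, as for Ntng1 (5.68 and 1.91) and Plxna4 (-3.56 and -0.33).

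Genes that act with guidance receptors were read from a list of 57 co-receptors, adaptors and cytoskeletal effectors, of which 52 were tested. In the double-positive arrays 1 rose, 3 fell and 48 did not pass. The calls were 7.69% of the list, near the 6.37% of all genes, and the median log2 fold change was -0.03, beside 0.02 for all genes. Tiam1, an exchange factor that activates Rac, rose from signals of 1959, 3861 and 3552 to 7912, 8123 and 9679 (log2 fold change 1.503, SE 0.28, adjusted p = 0.0109 by limma). L1cam and Chl1, adhesion molecules of axons that associate with neuropilins, fell. L1cam had 1944, 1249 and 1670 against 268, 500 and 284 (log2 fold change -2.16, SE 0.37), and Chl1 had 901, 1422 and 2730 against 36.9, 11.2 and 368 (log2 fold change -4.01, SE 0.79). Enah, an actin regulator downstream of Dcc and Robo receptors that is abundant in smooth muscle, fell from 27135, 33625 and 29093 to 9859, 17348 and 16121 (log2 fold change -1.09, SE 0.22, adjusted p = 0.0150 by limma). In each of these 4 genes the groups did not overlap. The 4 calls numbered 2 without single-positive array 2 or 3, beside 3.69% and 3.52% of all genes. None of 47 passed limma when genes were averaged over their probe sets, where 5.01% of all genes passed. In that fit 7 of the 47 had an unadjusted limma p below 0.05, and in the main fit 17.6% of all genes did. The common effectors Rac1, Cdc42 and Rhoa had log2 fold changes of 0.03, -0.05 and -0.20 and did not pass.

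The median standard deviation of log2 signal was 0.33 in single-positive and 0.43 in double-positive arrays for the 59 members, against 0.30 and 0.38 for all tested genes. Double-positive array 1 was the lowest of its group for 28 members (47.5%, against 29.3% of all genes) and double-positive array 2 the highest for 28 (47.5%, against 40.4% of all genes). The 13 members below the filter were Epha10, Epha5, Epha6, Epha8, Ntn3, Ntng2, Plxna4os1, Robo2, Robo3, Sema3g, Sema6b, Slit1 and Unc5d, and the highest signal of any of their brightest probe sets was 261 (Sema3g). Sema3g had 107, 139 and 261 in single-positive and 23.9, 17.5 and 78.8 in double-positive arrays, and Sema6b had 28.6, 22.2 and 44.8 against 109, 78.8 and 203. Epha5 had 58.6, 82.6 and 66.4 against 97.3, 113 and 88.9. In these 3 of the 13 genes the groups did not overlap, beside 12.6% of all 4729 genes under the filter and 22.4% of those tested, and no test was made at these levels.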

How the data were processed

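Per the labels' protocols, cells were freed from microdissected bladders by enzyme digestion, separated by FACS and amplified in 2 rounds, without pooling. The authors deposited a linear signal intensity for each probe set. GCOS stands in the submitters' processing notes, and its settings were not used here. All 6 arrays had a trimmed mean of 1500, which shows prior scaling and hides differences in total RNA per cell.

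Signals were analysed as log2(signal + 25.042), with the 20th percentile as offset. A gene stood on its brightest probe set with 1 symbol and needed a mean of 6.82, the 40th percentile. limma 3.58.1 (R 4.3.3, two-sided, variance trend) gave folds, standard errors, 95% confidence intervals and Benjamini-Hochberg p-values over all genes, and separately over all probe sets. The number of arrays limits the precision.

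Members, lists and motifs were chosen with earlier results of these data known. The naming rule took members past the threshold and, per family, the 3 of smallest p and the 2 brightest; other members were named after their values were seen. On simulated data for 13464 genes, the fit recovered 3 of 66 log2 changes of 1 and 45 of 67 of 2, with 1 false call among 103. The data gave 857 calls, so the adjusted threshold asked for a smaller unadjusted p in the simulation. The shares recovered there can be too low for the data. Normalization, offset, filter, choice of probe set, variance model, weights, a replicate block and the leaving out of each array were varied.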

Additional observations from a re-analysis of the deposited data

How the results depend on the processing

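Of 538 values of the 32 named members under alternatives, 469 kept their direction and side of the threshold, 37 lost the call, 12 gained one and 20 changed sign; the last were in 9 members, none of them past the threshold. Ntng1 passed under 17 of 17 alternatives. Its log2 fold change was 4.62 at 4 times the offset and 2.26 with the mean over probe sets. Plxna4 passed under 15 of 16, Sema3e under 11 of 17, and Dcc and Efnb1 under 10 of 17 each. Sema4f passed under 9 of 17 and Plxnb3 under 8 of 16. The alternatives reuse the same arrays. In the main fit Ntng1 and Plxna4 were tested only through the group in which they are bright, so their counts are no separate support. The 7 members past the threshold became 4 without the filter (3 higher and 1 lower, beside 4.03% of all genes). They were also 4 with the mean over probe sets (2 and 2, beside 5.01%) and 4 with the brightest unshared probe set (3 and 1, beside 6.16%). Without the variance trend they were 4 as well (2 and 2, beside 4.69%). The members became 10 with quantile normalization (5 and 5, beside 6.39%) and 12 with array weights (5 and 7, beside 9.99%). Counted by probe set and not by gene, 4 of 116 passed (2 and 2, beside 3.42% of all probe sets). Of these, 1 was of Nrp2, which is not among the 7. Array weights also gave 1345 genes past the threshold in place of 857, and 13 member probe sets in place of 4 (6.07% of all probe sets). Partner and signal genes past the threshold went from 4 to 0 with the mean over probe sets. The cause of these shifts was not tested.

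With 1 array left out in turn, members past the threshold ranged from 2 to 7 (1 to 3 higher, 1 to 4 lower). Partner and signal genes ranged from 2 to 5, and all genes from 474 to 1077 (3.52% to 8%). Member probe sets ranged from 2 to 8, beside 1.53% to 4.16% of all probe sets. Log2 fold changes that crossed 0 in those fits ranged from -0.083 to 0.691 for Efna5, -0.242 to 0.525 for Epha7, -0.418 to 0.418 for Nrp1, -0.318 to 0.103 for Ntn1, -0.347 to 0.412 for Plxna1, -0.272 to 0.269 for Plxnb2, -0.325 to 0.080 for Slit2 and -0.305 to 0.116 for Slit3. Signs also turned with the mean over probe sets for Neo1 (-0.135) and Ntn1 (0.134), with median centring for Nrp1 (0.006) and Plxnb2 (0.010), and with array weights for Nrp1 (0.047) and Slit3 (0.092).

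Deviations of same-numbered arrays of both groups from their group means had correlations of 0.092, 0.025 and -0.065. With 3 arrays a group these cannot show whether same-numbered samples share a litter or day, and the labels do not say. A replicate block gave 9 members past the threshold (5 higher, 4 lower) and 1014 genes (7.53%). With 3 arrays a group, simulated log2 changes of 1 were mostly missed, though the simulation had fewer calls and so a stricter cut than the data. A member that did not pass may still differ.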
